A study of Mus musculus with 9 samples.

Results

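The 8 genes described here encode enzymes of cholesterol synthesis: Hmgcs1, Pmvk, Mvd, Idi1, Fdps, Sqle, Cyp51 and Tm7sf2. They were given as a list of gene symbols. This list and the other gene lists below were chosen with earlier results of these data known. Every probe set annotated with exactly 1 of the 8 symbols was taken, which gave 16 probe sets of 22626 tested. Those 16 stand for 8 of the 12393 genes with a probe set of their own on the array. A probe set is a group of short probes read out as 1 intensity value. Pmvk, Sqle and Tm7sf2 had 1 probe set each, Mvd, Idi1 and Fdps 2 each, Cyp51 3 and Hmgcs1 4.

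The RNA came from N1E-115, a cell line grown from a mouse neuroblastoma, and was read on 9 arrays that form 3 groups of 3, lettered A, B and C. The groups are labelled as overexpressing mouse Tcof1, as wildtype for Tcof1 and as knockdown of Tcof1, and all are the same line. Tcof1 is the gene of treacle, which works in the nucleolus in the making of ribosomal RNA. The sources used here do not give how Tcof1 was raised or lowered, whether a group is 1 clone, or whether the letters stand for cultures kept apart. Every p-value thus rests on the spread among arrays, and that spread may be technical.

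Sterol synthesis starts from acetyl-CoA in the cytosol, and Hmgcs1 makes the substrate of the reductase step that commits it to mevalonate. Pmvk, Mvd, Idi1 and Fdps then carry mevalonate to farnesyl diphosphate, where a branch to protein prenylation, dolichol and ubiquinone leaves the sterol route. Sqle, Cyp51 and Tm7sf2 act after squalene, the first hydrocarbon of the sterol branch, and bring it toward cholesterol. Most of these genes are known targets of the transcription factor SREBP-2, encoded by Srebf2, which is released from the endoplasmic reticulum when membrane sterol falls.

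The labels were checked against Tcof1 and against cell type markers. Tcof1 probe set 1423600_a_at read 386, 232 and 264 on overexpressed arrays A, B and C, 143, 156 and 149.8 on the wildtype arrays and 135, 112 and 133 on the knockdown arrays. It rose in the overexpressing cells (log2 difference 0.87 ± 0.21 SE, adjusted p = 0.0241), while the other 2 probe sets gave 0.63 and 0.39 (adjusted p = 0.0786 and 0.187). A reduction was not detected in the arrays labelled knockdown (-0.22, adjusted p = 0.744), nor on the other 2 probe sets (-0.40 and 0.06). Array medians ran from 164.1 to 185.95. Of 18 sympathetic neuroblast markers, 2 were called higher and 5 lower (adjusted p under 0.05) in the overexpressing cells against wildtype, and their summed intensity was 50198 to 54385 there, 59999 to 63343 in wildtype and 60768 to 66316 in knockdown. The defining markers Th (group means 2876 to 3685), Dbh (1531 to 2413), Phox2a (3403 to 4163) and Hand2 (1326 to 1476) were bright, while the neurofilament genes Nefl and Nefm were dim (2.4 to 47.8). Fibroblast markers (10 genes, 2 called lower) summed to 2421 to 3081, 3713 to 4335 and 3878 to 4901, and blood and immune markers (9 genes, 1 called lower) to 916 to 1016, 1529 to 1610 and 1374 to 1482. Schwann cell and glia markers (6 genes, 1 called lower) summed to 6225 to 7812, 7289 to 9935 and 7582 to 7733. No marker is listed at 0, and the part of these shifts in the results that follow was not tested.

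In the cells overexpressing Tcof1, 5 of the 8 sterol genes fell against wildtype: Pmvk, Mvd, Fdps, Cyp51 and Tm7sf2. None of the 8 rose, and Hmgcs1, Sqle and Idi1 did not pass the test. The 3 largest differences were those of Pmvk, Tm7sf2 and Fdps, at 0.436, 0.497 and 0.508 times the wildtype level. By probe set, 6 of 16 fell, against 9.59% of all probe sets called in either direction, 5.07% called lower and 4.52% called higher. Without overexpressed array A or without array B the 6 became 3. Before adjustment 9 of the 16 had p under 0.05, against 23% of all. A call is an adjusted p under 0.05 in limma's moderated test on log2(intensity + 16), adjusted by Benjamini-Hochberg over all 22626 probe sets. In 7 of the 16 the overexpressed arrays all lay below the wildtype arrays, against 14.4% of all probe sets, and in 0 of 16 all above, against 13.3%. The median log2 difference of the 16 was -0.18, and that of all probe sets tested was -0.02. The 8 genes were chosen with earlier results of these data known, so these counts beside all probe sets are a description. In bulk RNA, fewer cells that make a transcript and less of it per cell cannot be told apart.

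**Figure D1:**
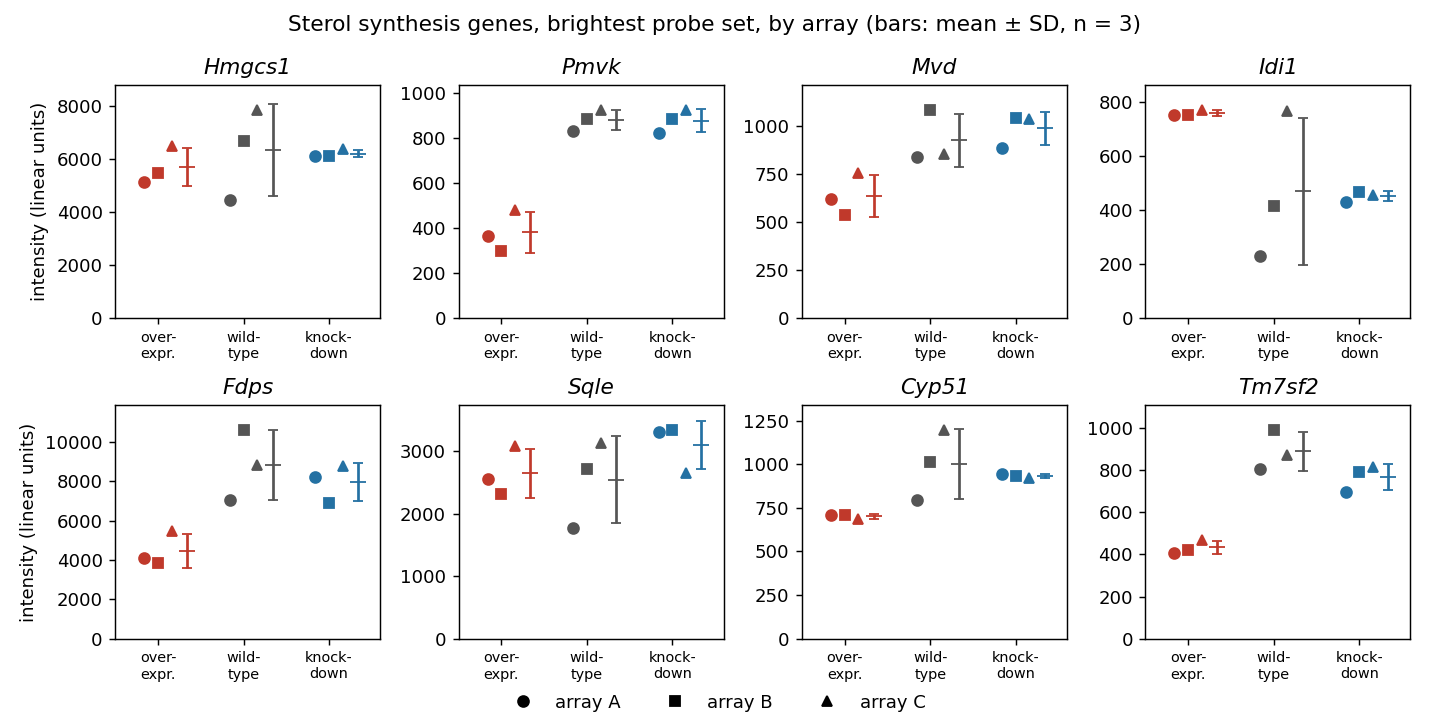
Intensity of the brightest probe set of each of the 8 sterol synthesis genes (linear axis from 0, arbitrary units of the deposited values) on the 3 overexpressed, 3 wildtype and 3 knockdown arrays; points are arrays, and horizontal ticks with bars are group means ± SD (n = 3). The overexpressed points of Pmvk (299 to 482) and Tm7sf2 (408 to 471) lie well below those of both other groups, while for Hmgcs1 and Sqle the groups overlap, and Idi1 spans 229.6 to 764 in wildtype.

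The bases before the start of 4 of these genes are shown because the genes share a regulator by background knowledge and not all were called. Mvd and Tm7sf2 fell, Hmgcs1 was not called, and Idi1 had higher values that were not called. A difference between genes was not tested. Each run is the 200 bases before the start, 5′ to 3′ on the gene's strand, from RefSeq on build GRCm38.p6. Capitals mark CCAAT, or ATTGG where it lies on the other strand, and, in Hmgcs1, the match to TCACNCCAC, a core of the SREBP recognition sequence. The positions are chr13:119690151-119690350 (plus strand) for Hmgcs1, chr8:122443423-122443622 (minus strand) for Mvd, chr13:8885406-8885605 (plus strand) for Idi1 and chr19:6067851-6068050 (minus strand) for Tm7sf2.
Hmgcs1: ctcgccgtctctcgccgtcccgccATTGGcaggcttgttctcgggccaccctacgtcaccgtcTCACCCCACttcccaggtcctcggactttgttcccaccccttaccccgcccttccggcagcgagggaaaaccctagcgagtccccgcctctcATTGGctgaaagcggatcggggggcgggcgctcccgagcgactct
Mvd: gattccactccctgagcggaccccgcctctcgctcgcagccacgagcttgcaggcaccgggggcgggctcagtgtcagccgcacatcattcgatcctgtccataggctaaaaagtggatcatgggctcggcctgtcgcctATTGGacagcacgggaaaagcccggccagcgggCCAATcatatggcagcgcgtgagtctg
Idi1: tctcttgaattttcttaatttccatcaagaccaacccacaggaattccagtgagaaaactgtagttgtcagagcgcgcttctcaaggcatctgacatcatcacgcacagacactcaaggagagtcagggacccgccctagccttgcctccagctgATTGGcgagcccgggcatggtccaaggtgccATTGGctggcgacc
Tm7sf2: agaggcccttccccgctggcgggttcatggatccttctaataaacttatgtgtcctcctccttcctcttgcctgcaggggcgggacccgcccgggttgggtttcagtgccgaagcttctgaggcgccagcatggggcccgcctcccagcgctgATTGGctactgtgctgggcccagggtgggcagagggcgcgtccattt

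RefSeq windows from 250 bases before to 50 after the start were matched for 6 of the 8 genes, all but Fdps and Sqle. CCAAT, which NF-Y binds, was found on either strand in 6 of 6, in 9 of 11 other sterol synthesis enzymes matched, and in 37.4% of all 32851 windows of 300 bases. These 11 are not the same as the 11 enzymes measured below. Acat2 was matched and not measured, and Fdft1 was measured and not matched. In Mvd it starts 60 and 27 bases before the start, in Idi1 45 and 14 bases before, and in Tm7sf2 47 bases before. GGGCGG, the core that Sp1 binds, was in 5 of 6 and in 11 of 11 other enzymes, against 35.7% of all windows, with Pmvk the one that lacks these letters. TCACNCCAC was in 1 of 6, Hmgcs1, 137 bases before the start, and in 0 of 11 other enzymes, against 1.24% of all windows. No match of one motif overlapped a match of another in these genes. Pmvk has 2 annotated starts, and CCAAT was in 1 of those 2 windows. Among the other enzymes Dhcr7 has 3 windows, with CCAAT only in window 3. A gene was counted if any of its windows held the motif, while the shares are of single windows. CCAAT was thus found in the matched genes called lower and in Hmgcs1 and Idi1, which were not called. A match is a description of these letters only, and its part in the results was not tested.

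Among the early steps, Hmgcs1, the synthase that makes HMG-CoA, did not pass the test in any comparison on any of its 4 probe sets. The brightest, 1433443_a_at, read 5118, 5460.2 and 6481 on overexpressed arrays A, B and C, 4459, 6682 and 7836 on the wildtype arrays and 6121, 6111 and 6365 on the knockdown arrays. Wildtype array A was lower and wildtype array C higher than every other array, so the wildtype range enclosed both other groups. The log2 difference was -0.12 ± 0.17 (SE, 95% interval -0.51 to 0.26, adjusted p = 0.773) for overexpressed over wildtype and 0.01 (adjusted p = 0.988) for knockdown over wildtype. The other 3 probe sets gave, for the overexpressed arrays, -0.09, -0.04 and -0.24 against wildtype (adjusted p between 0.416 and 0.927). The 95% intervals of the 4 reach from a fall of 0.57 to a rise of 0.31 on the log2 scale, so a change of the size seen in Pmvk lies outside them.

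Pmvk, the kinase that adds the second phosphate to mevalonate, showed the largest fall of the 8. Probe set 1427893_a_at read 366, 299 and 482 on overexpressed arrays A, B and C, 835, 887 and 926 on the wildtype arrays and 825, 885 and 927 on the knockdown arrays. All 3 overexpressed arrays were below all 6 others, and the wildtype and knockdown arrays covered nearly the same range. The group means were 382 ± 92.7, 883 ± 45.4 and 879 ± 51.0 (SD, n = 3 arrays each). The overexpressed arrays differed from wildtype by -1.20 ± 0.15 on the log2 scale (SE, 95% interval -1.53 to -0.87, adjusted p = 0.00123). Against knockdown the fall was of like size (-1.19 ± 0.15, adjusted p = 0.00174).

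Mvd, the decarboxylase that turns mevalonate diphosphate into isopentenyl diphosphate, fell on both of its probe sets. 1417303_at read 619, 536 and 755 on overexpressed arrays A, B and C, 838, 1085 and 858 on the wildtype arrays and 888, 1041 and 1038 on the knockdown arrays. 1448663_s_at, of a type whose probes can match more than 1 transcript, read 511, 524 and 821 in overexpressed, 1094, 1064 and 986 in wildtype and 912, 871 and 848 in knockdown. On both probe sets the overexpressed arrays lay below every wildtype and knockdown array, with array C the highest of the 3. Overexpressed over wildtype was -0.54 ± 0.14 (SE, adjusted p = 0.0412) on the first and -0.78 ± 0.16 (adjusted p = 0.0119) on the second. The first call was kept under 6 of 18 other settings and, with 1 array left out, only without overexpressed array C (adjusted p up to 0.159). The second was lost only without overexpressed array A or B, with adjusted p up to 0.0502.

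Idi1, the isomerase that makes dimethylallyl diphosphate from isopentenyl diphosphate, had higher values on both probe sets in the overexpressing cells, and did not pass the test. 1451122_at read 749, 751 and 769 on overexpressed arrays A, B and C, 229.6, 414 and 764 on the wildtype arrays and 429.7, 467 and 456 on the knockdown arrays. The overexpressed arrays were nearly equal and lay above all knockdown arrays, but wildtype array C reached the overexpressed level while wildtype array A was the lowest of the 9. 1423804_a_at read 244, 219 and 179.5 in overexpressed, 77.4, 139 and 194 in wildtype and 128, 85.6 and 102 in knockdown, with the same order of the wildtype arrays. Overexpressed over wildtype was 0.83 ± 0.31 (SE, 95% interval 0.15 to 1.51, adjusted p = 0.130) on the first and 0.66 ± 0.29 (adjusted p = 0.208) on the second, and neither was called. The value moved with single wildtype arrays: without wildtype array C it was 1.25 (adjusted p = 0.00415), and without wildtype array A it was 0.42 (adjusted p = 0.313).

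Fdps, which joins the isoprene units into farnesyl diphosphate and stands at the branch to protein prenylation, fell. 1423418_at read 4086, 3864 and 5453 on overexpressed arrays A, B and C, 7049.6, 10605 and 8813 on the wildtype arrays and 8198, 6919 and 8788 on the knockdown arrays. The overexpressed arrays were all below the other 6, and their highest, array C, was below the lowest knockdown array, B. Group means were 4467 ± 860.4, 8823 ± 1778 and 7968 ± 955 (SD, n = 3 arrays each). The log2 difference of overexpressed over wildtype was -0.98 ± 0.17 (SE, 95% interval -1.35 to -0.61, adjusted p = 0.00515). The other Fdps probe set, 1438150_at, read 1.3 to 5.5 on all arrays, with 0.34% of all probe sets dimmer, and was not called.

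**Figure D2:**
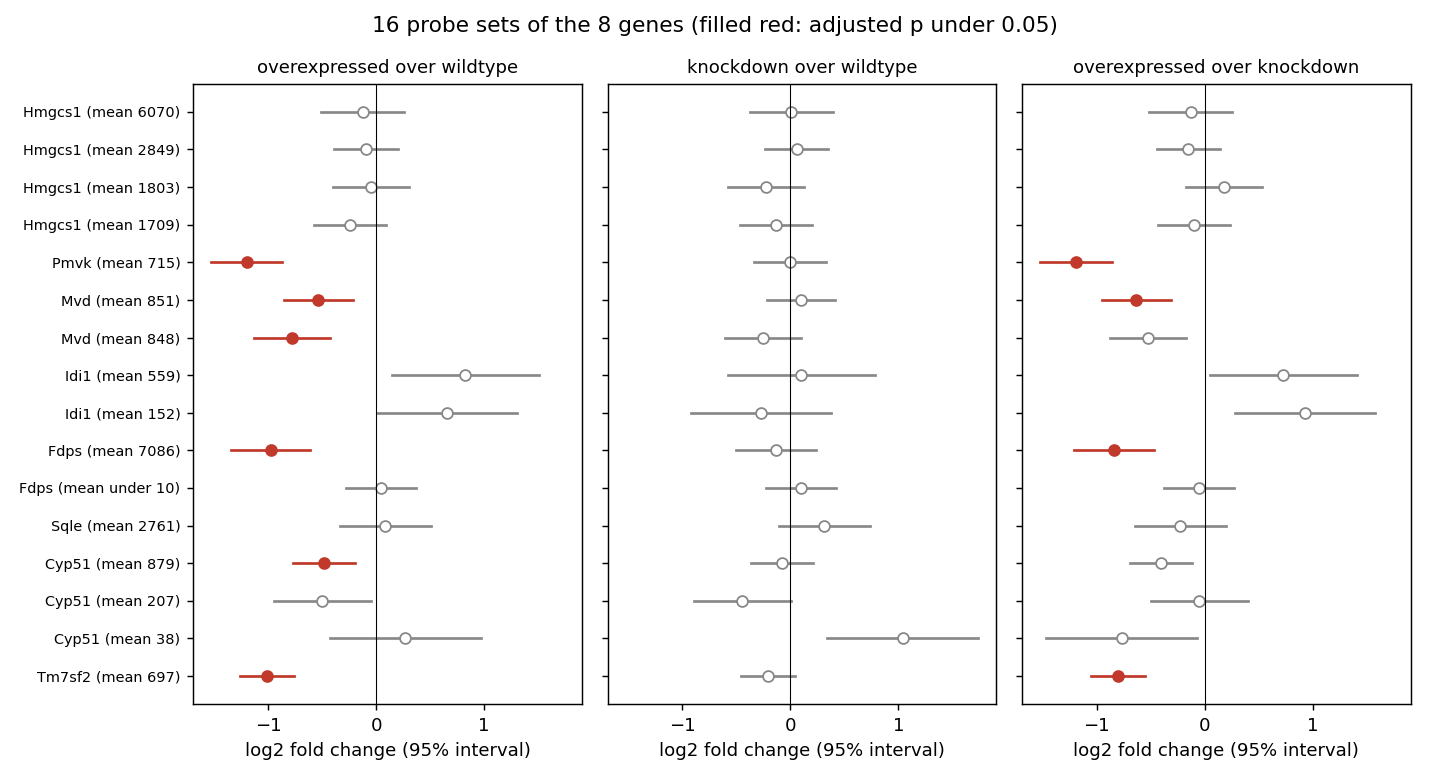
Log2 difference (limma, on log2(intensity + 16)) with its 95% interval for each of the 16 probe sets in the 3 comparisons, each named by its gene and mean intensity over 9 arrays; filled points have an adjusted p under 0.05. Filled points occur for Pmvk, Mvd, Fdps, Cyp51 and Tm7sf2 where the overexpressing cells enter the comparison, all below 0, and none occurs for knockdown over wildtype.

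After squalene, Sqle, the epoxidase of the first oxygen-requiring step, did not pass the test. 1415993_at read 2555, 2309.5 and 3076 on overexpressed arrays A, B and C, 1776, 2719.5 and 3128 on the wildtype arrays and 3309, 3332 and 2645 on the knockdown arrays. The groups overlapped, and wildtype array A was the lowest of the 9. Overexpressed over wildtype was 0.09 ± 0.19 (SE, 95% interval -0.33 to 0.51, adjusted p = 0.867).

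Cyp51, the lanosterol demethylase, fell on its brightest probe set. 1450646_at read 710.2, 712 and 686 on overexpressed arrays A, B and C, 794, 1015 and 1195 on the wildtype arrays and 945, 935 and 922 on the knockdown arrays. The overexpressed arrays were close together and below all others, while the wildtype arrays spread widely, with array A lowest. Overexpressed over wildtype was -0.48 ± 0.13 (SE, 95% interval -0.77 to -0.19, adjusted p = 0.0417). The call was kept under 6 of 18 other settings (adjusted p up to 0.131) and, with 1 array left out, only without wildtype array A, where the value was -0.64 (adjusted p = 0.00738). Probe set 1422533_at read 214, 159 and 160.5 in overexpressed, 216, 244 and 314 in wildtype and 182, 156 and 215 in knockdown, with a like value that was not called (-0.50 ± 0.20, adjusted p = 0.170). 1422534_at was dim, at 14.2 to 91.6, and gave 0.27 (adjusted p = 0.706), so the 3 Cyp51 probe sets disagreed in sign.

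Tm7sf2, a sterol reductase of the endoplasmic reticulum that acts on the product of Cyp51, had the smallest adjusted p of the 16 probe sets. 1460684_at read 408, 421 and 471 on overexpressed arrays A, B and C, 808, 991 and 871 on the wildtype arrays and 698, 794 and 814 on the knockdown arrays. The 3 overexpressed arrays lay below the other 6 with a wide gap. Group means were 433 ± 32.8, 889.9 ± 92.8 and 768 ± 61.9 (SD, n = 3 arrays each). Against wildtype the log2 difference was -1.01 ± 0.11 (SE, 95% interval -1.26 to -0.76, adjusted p = 0.000739). Pmvk, Fdps and Tm7sf2 kept their calls against wildtype under all 18 other settings, with adjusted p up to 0.00917, 0.0268 and 0.00739.

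Knockdown was compared with the same wildtype arrays, and none of the 8 genes passed the test. Of the 16 probe sets, 0 were called by limma, against 0.0133% of all probe sets (3 of 22626, with 0.00884% lower and 0.00442% higher), and 1 had an unadjusted p under 0.05, against 10.9% of all. That one was the dim Cyp51 probe set 1422534_at, at 1.04 ± 0.32 (SE, adjusted p = 0.290). The knockdown arrays lay wholly below wildtype in 2 probe sets, Mvd 1448663_s_at and Cyp51 1422533_at, against 7.01% of all, and wholly above in 1, the dim Cyp51 one, against 8.63%. Pmvk at -0.01 had a 95% interval of -0.34 to 0.33, Tm7sf2 at -0.21 one of -0.46 to 0.05 and Fdps at -0.13 one of -0.50 to 0.24. Falls of the size these 3 genes showed under overexpression lie outside those intervals. The interval of Idi1 (1451122_at) was wider, from -0.58 to 0.78. Since no reduction of Tcof1 was detected, this is a comparison of the arrays labelled knockdown.

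Between overexpressed and knockdown arrays, 4 genes fell: Pmvk (-1.19), Mvd (-0.63 ± 0.14 SE on 1417303_at, adjusted p = 0.0252), Fdps (-0.84 ± 0.17, adjusted p = 0.0143) and Tm7sf2 (-0.80 ± 0.11, adjusted p = 0.00289). That is 4 of 16 probe sets, against 7.57% of all called in either direction and 4.14% called lower, and none rose, against 3.43% of all. Before adjustment 9 of 16 had p under 0.05, against 22.5% of all. The groups did not overlap in 7 probe sets with overexpression lower, against 15.2% of all, and in 2 with it higher, both of Idi1, against 12.9%. Idi1 gave 0.73 ± 0.31 (adjusted p = 0.192) and 0.93 ± 0.29 (adjusted p = 0.0826), and Cyp51 -0.40 ± 0.13 (adjusted p = 0.0901). The 4 probe sets became 2 without overexpressed array A or B or knockdown array C, and without wildtype array A 5 fell and 2, both of Idi1, rose. Fdps lost its call without overexpressed array A or B, without knockdown array C and without the mean-variance trend (adjusted p up to 0.0607), and Mvd under these settings, without knockdown array B and with a common array median (up to 0.0847). Fitted on these 2 groups alone, or without wildtype array A or C in the estimate of the spread, Idi1 1451122_at was called higher (adjusted p = 0.00503, 0.0379 and 0.0374).

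Within wildtype and within overexpressed, 1 array held the same end of its group for most of the 8 genes. On the brightest probe set of each gene, wildtype array A was the lowest of the 3 wildtype arrays for 8 of 8 genes, a place it held for 36.4% of all probe sets. Over all 16 probe sets it was the lowest in 12. Its source label spells the line N1-115 where the other wildtype arrays have N1E-115. Overexpressed array C was the highest of its group for 7 of 8 genes, against 31.4% of all probe sets. The mean log2 deviation of the 8 genes from the wildtype mean was -0.34, 0.12 and 0.22 on wildtype arrays A, B and C, -0.48, -0.55 and -0.25 on the overexpressed arrays, and -0.02, 0.02 and 0.04 on the knockdown arrays. By this mean, wildtype array A fell among the overexpressed arrays, while the knockdown arrays were close together. By the median it did not. The median deviation of the 8 genes was -0.31 on wildtype array A, above -0.51, -0.61 and -0.40 on overexpressed arrays A, B and C.

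**Figure D3:**
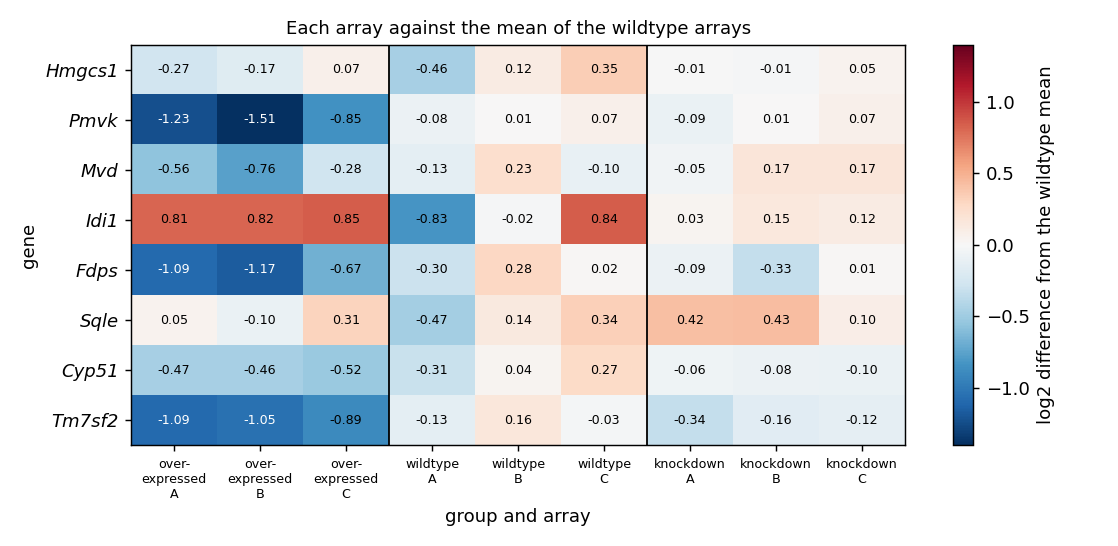
Log2 deviation of each of the 8 genes from its wildtype mean (colour scale, brightest probe set) on each of the 9 arrays, with genes in pathway order. Wildtype array A is below 0 for all 8 genes, and on the overexpressed arrays Idi1 is above 0 (0.81 to 0.85) beside Fdps below 0 (-1.17 to -0.67).

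The spread within wildtype differed between genes. The highest wildtype array exceeded the lowest 3.33-fold for Idi1, 1.76-fold for both Hmgcs1 and Sqle, 1.51-fold for Cyp51 and 1.5-fold for Fdps, but 1.29-fold for Mvd, 1.23-fold for Tm7sf2 and 1.11-fold for Pmvk. Idi1 varied only 1.03-fold within overexpressed and 1.09-fold within knockdown. The genes with the least wildtype spread, Pmvk and Tm7sf2, were among the 3 with the largest differences, and so was Fdps, whose spread was wider. A link between spread and difference was not tested. Without wildtype array A the overexpressed over wildtype values were -1.24 for Pmvk, -1.13 for Fdps and -1.07 for Tm7sf2 (adjusted p = 0.00433, 0.00488 and 0.00208).

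Over the 9 arrays, Pearson's r between the log2 values of pairs of the 8 genes ran from -0.616 (Idi1 with Tm7sf2) to 0.954 (Pmvk with Tm7sf2), with a median of 0.457 over 28 pairs. Pmvk, Fdps and Tm7sf2 formed the closest trio, with r = 0.941 for Fdps and Pmvk and 0.947 for Fdps and Tm7sf2. After each group's mean was taken away, all 28 were above 0, with a median of 0.561 and a range of 0.031 to 0.977, the highest being Idi1 with Cyp51. All pairs share the same 9 arrays and their scaling, so these values are a description. The difference between Idi1 and Fdps in log2 deviation, chosen after their values were seen, was 1.80 ± 0.25 (SD) on the overexpressed arrays, 0 ± 0.72 on the wildtype arrays (0 by construction) and 0.23 ± 0.21 on the knockdown arrays. On each overexpressed array Idi1 thus stood above its wildtype mean and Fdps, the next step of the route, below its own.

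The other enzymes of the route were counted on the brightest probe set of each gene, and 11 were measured. Against wildtype, 2 of 11 fell in the overexpressing cells and none rose, with a median of -0.17 (5.07% of all probe sets were called lower). Fdft1, the squalene synthase, read 963, 1206 and 1158 on overexpressed arrays A, B and C, 1434, 1997 and 1624 on the wildtype arrays and 1759, 1608 and 1514 on the knockdown arrays, and its overexpressed arrays were below all 6 others (-0.59 ± 0.13 SE, adjusted p = 0.0181). Lss, which closes the ring to lanosterol, read 1112, 945 and 1388 in overexpressed, 1552, 1731 and 1941 in wildtype and 1609, 1817 and 1523 in knockdown, again with all overexpressed arrays lowest (-0.61 ± 0.14, adjusted p = 0.0212). These probe sets, 1438322_x_at and 1420013_s_at, are of types whose probes can match more than 1 transcript. Fdft1 1448130_at was also called (-0.48, adjusted p = 0.0318), and its 2 dimmer probe sets were not (-0.33 and -0.41, adjusted p = 0.411 and 0.783). The other 2 of Lss were dimmer and not called (-0.31 and -0.71, adjusted p = 0.352 and 0.103). On the brightest probe sets both genes fell against knockdown as well, at -0.55 (adjusted p = 0.0296) and -0.53 (adjusted p = 0.0445), while none of the others was called there. Neither kept its call in every setting: against wildtype Fdft1 lost it without overexpressed array A, without wildtype array B and with no trend, and Lss without overexpressed array A or B, without wildtype array B or C and with no trend. Against knockdown Fdft1 lost it in 6 of 18 settings (adjusted p up to 0.114) and Lss in 10 of 18 (up to 0.139), among them, for both, overexpressed array A or any 1 knockdown array left out, for Fdft1 also overexpressed array C, and for Lss overexpressed array B or wildtype array B. Against wildtype the count of 2 became 0 without wildtype array B and 1 without overexpressed array A or B. Without overexpressed array A that 1 was an enzyme other than Fdft1 and Lss. Against knockdown the count became 0 without overexpressed array A or any 1 knockdown array. It became 1 without overexpressed array B or C or wildtype array B. Knockdown over wildtype gave 0 of 11, with a median of 0.17. With the 8 genes above, 7 of 19 enzymes fell and 0 rose in overexpressed over wildtype. Of all probe sets, 9.59% were called there in either direction and 5.07% were called lower. In overexpressed over knockdown 17 of 19 had a lower value and 6 were called lower. There 12592 of 22626 probe sets had a lower value, 7.57% were called in either direction and 4.14% were called lower. The 19 are brightest probe sets, while the shares cover all probe sets, dim ones included. As the lists were chosen with earlier results known, these counts are a description.

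**Figure D4:**
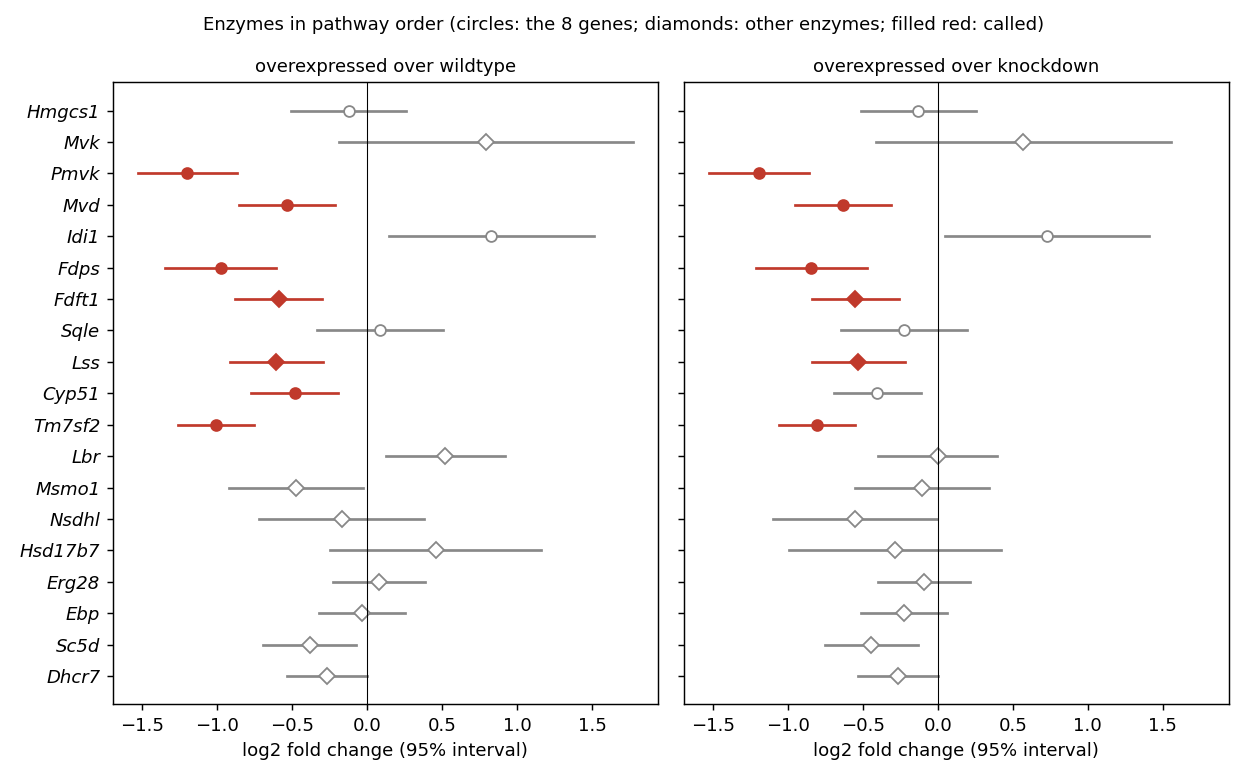
Log2 difference with its 95% interval for 19 sterol synthesis enzymes in pathway order (brightest probe set of each), for overexpressed over wildtype (left) and over knockdown (right); circles are the 8 genes, diamonds other enzymes, and filled points have an adjusted p under 0.05. The 7 filled points on the left, all below 0, are Pmvk, Mvd, Fdps, Fdft1, Lss, Cyp51 and Tm7sf2, and on the right 6 are filled, without Cyp51.

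Among 13 genes of sterol sensing and SREBP processing, 2 fell in overexpressed over wildtype and none rose, with a median of -0.01, beside 5.07% of all probe sets called lower. Srebf1, which encodes SREBP-1, fell from 3434, 3672 and 4126 on wildtype arrays A, B and C to 2022, 2661 and 2432 on the overexpressed arrays (-0.66 ± 0.12 SE, adjusted p = 0.00833), and read 3555, 2892 and 2859 in knockdown. Insig2, which holds the SREBP complex in the endoplasmic reticulum, fell on all 3 of its probe sets, from 748, 645 and 554 to 342, 448 and 330.2 on 1417982_at (-0.77 ± 0.15, adjusted p = 0.00819). Against knockdown 1417982_at also fell (-0.86, adjusted p = 0.00703), and the other 2 were not called (adjusted p = 0.123 and 0.330). Srebf2 did not pass, at -0.48 ± 0.15 (adjusted p = 0.0737) and -0.33 ± 0.15 (adjusted p = 0.220) on its 2 probe sets. The first was called with array quality weights, with dim probe sets left out, with the letter as a block and without overexpressed array C (adjusted p = 0.0353, 0.0430, 0.0449 and 0.0427). Scap, the escort of SREBP, gave -0.01 ± 0.11 (adjusted p = 0.971), and its sign turned with each array scaled to a common median (0.01). Nfyb, a subunit of the CCAAT-binding factor NF-Y, rose against knockdown (0.81 ± 0.20, adjusted p = 0.0354), and against wildtype it rose on 1 of its 2 probe sets (0.84 ± 0.14 on 1419267_at, adjusted p = 0.00462) and not on the brighter (0.65 ± 0.20, adjusted p = 0.0703). The Nfyb call against knockdown was lost in 8 of 18 settings, among them each overexpressed array left out, knockdown array B or C left out and the letter as a block (adjusted p up to 0.0994). With array quality weights, or with dim probe sets left out, 3 of the 13 fell against wildtype and 1, Nfyb, rose. Against knockdown 1 of 13 rose and 1 fell. None of the 13 was called in knockdown over wildtype.

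Of 17 genes of sterol uptake, storage and transport, 5 fell and 1 rose in overexpressed over wildtype, where 5.07% of all probe sets were called lower and 4.52% higher, and the median was -0.22. Abca1, the cholesterol exporter, read 227, 236 and 196 on overexpressed arrays A, B and C, 729, 526 and 373 on the wildtype arrays and 309, 453 and 377 on the knockdown arrays (-1.20 ± 0.22 SE, adjusted p = 0.00812). Scarb1, the high density lipoprotein receptor, fell on all 3 probe sets, from 1761, 1658 and 1687 to 946, 905 and 1099 on the brightest (-0.79 ± 0.11, adjusted p = 0.00169). Mylip, a ubiquitin ligase for lipoprotein receptors, gave -0.87 ± 0.16 (adjusted p = 0.00653), and Npc2, which carries cholesterol out of lysosomes, -0.54 ± 0.11 (adjusted p = 0.0102). The other Npc2 probe set had a like value that was not called (-0.55 ± 0.16, adjusted p = 0.0621). The other 2 probe sets of Abca1 were lower and not called (-0.97 and -0.99, adjusted p = 0.0693 and 0.0790). Gramd1a, which moves sterol from the plasma membrane inward, gave -0.83 ± 0.17 (adjusted p = 0.0116). Tmem97, a regulator of the lysosomal sterol carrier Npc1, was the 1 gene that rose, reading 856, 811 and 764 against 347, 352 and 530.3 in wildtype and 587, 554 and 636 in knockdown (0.98 ± 0.15, adjusted p = 0.00342). Scarb1, Npc2 and Gramd1a act in sterol entry and movement, and Abca1 in export. The highest value of the list was that of Abcg1, which was dim and not called (1.28 ± 0.42, adjusted p = 0.0870). Against knockdown 2 of 17 fell, Scarb1 (-0.73, adjusted p = 0.00335) and Npc2 (-0.45, adjusted p = 0.0303), where 4.14% of all probe sets were called lower, and knockdown over wildtype gave 0. Npc2 lost this call in 7 of 18 settings (adjusted p up to 0.116), and its other probe set was not called (-0.53, adjusted p = 0.0813). The count of 2 became 1 without overexpressed array A or B, knockdown array B or C or wildtype array B. It was 4 without wildtype array A, and 4 lower with 1 higher without wildtype array C. Without wildtype array C, Tmem97 was also called higher in knockdown over wildtype (adjusted p = 0.0346).

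The non-sterol branch and the fatty acid genes were counted in the same way, beside the 9.59% and 7.57% of all probe sets called against wildtype and against knockdown. In the non-sterol isoprenoid branch 1 of 11 genes fell in overexpressed over wildtype, Rabggtb, a subunit of the transferase that prenylates Rab proteins (-0.49 ± 0.14 SE, adjusted p = 0.0484), with a list median of -0.01. Against knockdown 1 of 11 fell, Fntb, a farnesyltransferase subunit (-0.61 ± 0.16, adjusted p = 0.0416). These 2 calls were each kept under 6 of 18 other settings. With 1 array left out, that of Rabggtb was kept only without knockdown array C or wildtype array C, and that of Fntb only without wildtype array A. In fatty acid synthesis and desaturation 2 of 18 fell against wildtype, with a list median of 0.02. Without wildtype array C, 2 fell and 2 rose. Acss2, which makes cytosolic acetyl-CoA from acetate, read 554, 655 and 657 on overexpressed arrays A, B and C, 1452, 1524 and 1457 on the wildtype arrays and 1076, 1369 and 1318 on the knockdown arrays (-1.23 ± 0.11, adjusted p = 0.000276). Tecr, a reductase of fatty acid elongation, read 4680, 4295 and 4865 in overexpressed, 7413, 6776 and 7120.3 in wildtype and 6449.8, 6559 and 7082 in knockdown (-0.62 ± 0.08, adjusted p = 0.00157). Both fell against knockdown, at -0.99 and -0.54 (adjusted p = 0.000933 and 0.00435), as did Fads3, a desaturase-like gene (-0.68 ± 0.15, adjusted p = 0.0220). The Fads3 call was lost in 6 of 18 settings, among them overexpressed array A or B or knockdown array B or C left out (adjusted p up to 0.0879). The 3 that fell against knockdown became 4, with 1 higher, without wildtype array A or without wildtype array C. In both lists knockdown over wildtype gave 0 calls.

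The genes outside the sterol lists whose log2 values followed the mean standardised profile of the 8 genes most closely over the 9 arrays were Hdlbp (r = 0.942), Rpn1 (0.939), Chrna3 (0.935), Crmp1 (0.934), Nars (0.933) and Il17rc (0.933). The genes that ran most against it were Dnajc5 (-0.959), Cetn3 (-0.941) and Snrnp40 (-0.937). The profile stood at -0.86, -1.01 and -0.24 standard units on the overexpressed arrays, -0.63, 0.65 and 0.93 on the wildtype arrays and 0.32, 0.43 and 0.41 on the knockdown arrays. Each of the 6 genes was lower on wildtype array A than on arrays B and C, as was the profile by which they were picked. These are the extremes of many genes compared over 9 shared arrays and are given as a description.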

How the data were processed

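Per the labels, 9 samples of total RNA were measured, 3 per group. The authors deposited 1 linear intensity value per probe set and array, of a 1-colour array with probe set names of the Affymetrix kind. They used software, a background correction and a scaling not given in the sources used here. A trimmed mean of the deposited intensities was 500.2 on all arrays, so they had been scaled. Precision is limited by the number of arrays.

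Of 22690 probe sets, 64 controls were left out. Platform annotation gave 1 symbol to 20380, several to 691 and none to 1555, and only the first were named. Values were taken as log2(intensity + 16), which understates changes of dim probe sets. One limma model (version 3.58.1, R 4.3.3) with a mean for each group was fitted to all 9 arrays by lmFit, its variances were moderated by eBayes along a mean-variance trend, and p-values were adjusted by Benjamini-Hochberg over 22626 probe sets. The script was tested on simulated data. Every probe set of the 8 genes and Tcof1 was named, and of other lists each gene called in at least 1 comparison on its brightest probe set, with Srebf1, Srebf2, Scap and Insig2 in any case. Abcg1 was named as the highest value of its list against wildtype. The 8 genes and all lists were chosen with earlier results of these data known.

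The shared letters A, B and C were checked by the correlation of array deviations between groups. Same-lettered arrays gave -0.012 to 0.102, nearly all above 0, and differently lettered arrays gave -0.12 to 0.099, on both sides of 0. This does not settle whether the letters pair arrays. The labels do not say that they do, so the main fit left the letter out. Other settings were each array left out in turn, the letter as a block, a fit on only the 2 groups compared, no trend, array quality weights, arrays brought to a common median or quantile normalized, a pseudocount of 1 or of 64, and removal of probe sets under the 40th percentile of mean intensity.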

Additional observations from a re-analysis of the deposited data

How the results depend on the processing

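With 3 arrays a group the counts near the threshold moved with the settings, and the cause was not tested. Member probe sets called lower in overexpressed over wildtype were 6, and 3 to 5 with 1 array left out (3 without overexpressed array A or B). For overexpressed over knockdown the probe sets called in either direction were 4, all lower. They were 2 to 7 on leaving out 1 array (2 without overexpressed array A or B or knockdown array C, 7 without wildtype array A), 2 without the trend and 7 with only the 2 groups in the fit. Each 7 held 5 lower and 2 higher, and each 2 was lower. Of the other sterol enzymes 2 were called in each of these comparisons, and 0 to 3 with 1 array left out. Against wildtype that count was 0 without the trend and 1 by the mean of each gene's probe sets. Against knockdown it was 0 under both, 1 with a common array median and 1 with the replicate block. Knockdown over wildtype gave 0 in every setting, by limma, for members and other enzymes alike. With the letter as a replicate block, 4 member probe sets were called in overexpressed over wildtype and 4 in overexpressed over knockdown. Calls over all probe sets ranged from 1090 to 2827, 704 to 2213 and 0 to 103 in overexpressed over wildtype, overexpressed over knockdown and knockdown over wildtype.

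Signs turned only for differences that were not called. With 1 array left out, overexpressed over wildtype ran from -0.35 to 0.051 for Hmgcs1 1433443_a_at, -0.15 to 0.13 for 1433444_at, -0.20 to 0.065 for 1433445_x_at, -0.15 to 0.26 for Sqle and -0.082 to 0.042 for Scap. Overexpressed over knockdown ran from -0.18 to 0.058 for Cyp51 1422533_at, -0.13 to 0.027 for Fdps 1438150_at, -0.24 to 0.012 for Hmgcs1 1433446_at and -0.063 to 0.13 for Scap. Knockdown over wildtype ran from -0.23 to 0.056 for Cyp51 1450646_at, -0.29 to 0.0085 for Fdps 1423418_at, -0.22 to 0.18 for Hmgcs1 1433443_a_at, -0.047 to 0.22 for 1433445_x_at, -0.31 to 0.52 for Idi1 1451122_at and -0.045 to 0.038 for Pmvk. It ran from -0.15 to 0.089 for Fdft1, -0.015 to 0.20 for Insig2, -0.15 to 0.0055 for Lss, -0.33 to 0.091 for Nfyb, -0.15 to 0.05 for Scap and -0.12 to 0.039 for Scarb1. A common array median gave 0.0077 for Cyp51 1422533_at against knockdown, -0.025 for Hmgcs1 1433443_a_at in knockdown over wildtype and 0.015 for Scap in overexpressed over wildtype. Quantile normalization gave 0.011 and -0.012 for the same Cyp51 and Hmgcs1 values, and -0.0065 for Scap against knockdown. Array weights gave -0.054 for Hmgcs1 1433443_a_at in knockdown over wildtype and 0.026 for 1433444_at in overexpressed over wildtype.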
